A study of Solanum tuberosum with 100 samples.

Results

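A pair of genes on chromosome 4 of potato was followed through the 100 tuber samples of the series. The first, PGSC0003DMG400009888, is annotated as a mechanosensitive ion channel domain-containing protein and is placed at 71.27 Mb of the PGSC-DM v4.03 genome. The second, PGSC0003DMG400009885, encodes a pentatricopeptide repeat-containing protein (PPR) and is placed at 71.21 Mb, about 60 kb away. They were chosen by their read counts in high- against low-bruising samples, as neighbours on the study's list of genes that differed in that contrast. These 2 genes are all the members considered here, out of 25163 genes in the deposited table, and both had reads in every sample. They are called the channel gene and the PPR gene below.

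Mechanosensitive ion channels are membrane proteins that open when the membrane is stretched, and let ions pass. In plants, proteins of this kind are found in the plasma membrane, in plastids and in mitochondria, where they are known for releasing osmotic pressure and for signalling after touch or wounding. PPR proteins are RNA-binding proteins of plastids and mitochondria. They guide the editing, splicing, cutting and stability of organelle transcripts, and plants hold a very large family of them. The annotation does not say in which membrane or organelle the products of these particular genes work.

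The tubers came from 11 crosses of tetraploid potato that share the parent Crop52, and each genotype was sequenced once, from the pooled tissue of 3 tubers taken at the impact site 2 h after a lead weight had been dropped on them. The study placed 33 samples in a high-bruising group and 41 in a low-bruising group by the mean bruising score of their own tubers, and left out 26 samples with a score between its cut-offs, called intermediate here. All groups had been bruised and no unbruised tuber was sequenced, so a level present before the impact and one reached after it cannot be told apart. With 1 sample for each genotype, the spread between samples holds differences between genotypes, plants and libraries together. Values are in CPM, the reads of a gene scaled to a common library size, with the sizes adjusted by edgeR's TMM method. In bulk tissue, fewer cells of a type and less RNA per cell cannot be told apart.

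Total counts ran from 6832655 to 41650152 per sample (median 19394566). The channel gene had 108 to 1606 reads and the PPR gene 140 to 1326 reads in a sample, so neither was near the limit of detection. Of 10 tuber genes checked (patatins, protease inhibitors and the polyphenol oxidase POT32), 9 had reads in all 100 samples, and patatin 3 (PGSC0003DMG400000766) had reads in 99. The CPM of the channel gene had a correlation on the log2 scale of 0.14 with the total count, and that of the PPR gene 0.06.

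The channel gene was lower and the PPR gene higher in high-bruising tubers. This is the contrast that chose them, and its values are given as a description with no test. In the 33 high-bruising samples the channel gene ran from 11.4 to 32.3 CPM with a median of 22.9, against 14.3 to 54.9 CPM with a median of 26.9 in the 41 low-bruising samples. Its mean was 22.8 ± 5.57 CPM in high-bruising and 30.1 ± 10.1 CPM in low-bruising samples (SD, n = 33 and 41). The groups overlapped widely, since 31 of the 33 high-bruising samples lay inside the low-bruising range, but 25 of them lay under the low-bruising median. What high-bruising samples lacked were high values, as none passed 32.3 CPM.

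The PPR gene ran from 14.7 to 67.5 CPM (median 40.0) in high-bruising samples and from 16.8 to 58.8 CPM (median 26.3) in low-bruising samples. The mean was 37.0 ± 11.5 CPM in high-bruising and 28.0 ± 8.61 CPM in low-bruising samples (SD, n = 33 and 41). Here 30 of the 33 high-bruising samples lay inside the low-bruising range, and 26 lay above its median. Taking every pairing of 1 high-bruising with 1 low-bruising sample, the high-bruising sample was the higher one in 29.4% of pairs for the channel gene and in 74.6% for the PPR gene.

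**Figure D1:**
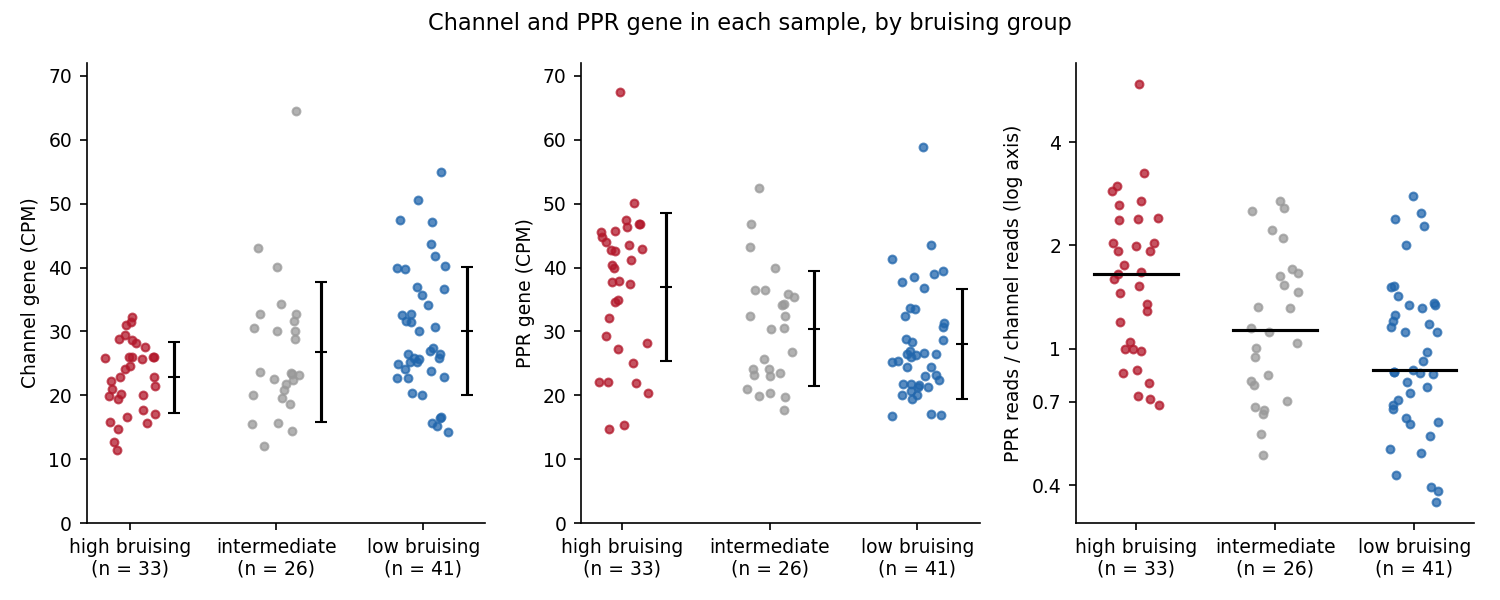
Channel gene (left) and PPR gene (middle) in CPM, and reads of the PPR gene over reads of the channel gene on a log axis (right), 1 point for each sample, in the high-bruising, intermediate and low-bruising groups. Bars give mean ± SD in the left and middle panels, and lines give the median on the right; the channel gene stayed at or under 32.3 CPM in all high-bruising samples, while the groups overlapped for both genes.

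The 26 intermediate samples, which had no part in the choice of the genes, lay between the other groups by their means. They had 26.7 ± 10.9 CPM of the channel gene (12.1 to 64.5, median 23.4) and 30.4 ± 8.99 CPM of the PPR gene (17.7 to 52.4, median 30.5; SD, n = 26). By its median the channel gene of intermediate samples was close to that of high-bruising samples. The ratio of PPR reads to channel reads, which is not corrected for gene length and is used only to compare samples, had a median of 1.65 in high-bruising, 1.13 in intermediate and 0.866 in low-bruising samples.

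In the edgeR fit without covariates, the log2 fold change of high over low bruising was -0.40 (SE 0.10) for the channel gene PGSC0003DMG400009888 and 0.40 (SE 0.10) for the PPR gene PGSC0003DMG400009885. The changes were of the same size in opposite directions. The channel gene stood at percentile 9.38 and the PPR gene at percentile 91.7 of the fold changes of all genes, so many genes had larger fold changes. Calls in this contrast are no evidence on the pair, since the choice fixed them for DESeq2, the tool of the study. DESeq2 called 57 of the 25163 genes (0.227%) at an adjusted p of 0.05, both genes included. It gave an adjusted p to 21260 genes. The quasi-likelihood test of edgeR called 46 genes (0.183%), and neither gene was among them. When crosses entered the model, the channel gene had a log2 fold change of -0.34 (SE 0.11) and the PPR gene one of 0.13 (SE 0.08). That edgeR fit called 0 of the 25163 genes (0%), and DESeq2 was not run with crosses in the model. An unadjusted p under 0.05 was found for 1343 genes, near the share that this threshold passes without any difference. The value of the PPR gene thus moved by more than its standard error once crosses were accounted for, and that of the channel gene by less.

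The bruising groups were spread unevenly over the crosses. The 5 crosses with the highest mean of the PPR gene held 22 of the 33 high-bruising samples and 10 of the 41 low-bruising samples. The 5 crosses with the highest mean of the channel gene held 12 of the 33 high-bruising and 21 of the 41 low-bruising samples. Cross 2165 alone gave 7 high-bruising samples, and without it the log2 fold change was -0.32 (SE 0.10) for PGSC0003DMG400009888 and 0.31 (SE 0.11) for PGSC0003DMG400009885. Crosses 2170 and 2183 gave 7 and 4 low-bruising samples and no high-bruising one.

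Which cross a tuber came from was not used to choose the genes, so it was tested, with the bruising group as a term. The PPR gene differed strongly between crosses (edgeR quasi-likelihood F = 14.9, adjusted p = 1.14e-13 for PGSC0003DMG400009885). The channel gene also differed, with a smaller F of 2.87 and an adjusted p of 0.00744 for PGSC0003DMG400009888. These calls are to be read against a background in which 16571 of the 25163 genes, or 65.9%, differed between the crosses. With crosses alone and no term for the bruising group, 66.6% of the log2 CPM variance of the PPR gene lay between crosses. This placed it at percentile 98.6 of all 25163 genes, a ranking that was not matched for expression level. For the channel gene the share was 27.2% (percentile 56.8), close to the 24.7% of the median gene. Because crosses differed in their mix of high- and low-bruising samples, these shares hold part of the contrast that chose the genes. The percentiles are thus a description and not independent of that choice. The call for the channel gene was lost without cross 2165 (adjusted p = 0.115) and when only high- and low-bruising samples were fitted (adjusted p = 0.0570).

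The PPR gene was highest in cross 2172 (Crop52 with Summit Russet), at 44.6 ± 8.56 CPM (SD, n = 7). Cross 2165 followed with 43.9 ± 10.7 CPM (n = 9), and cross 2168 with 42.0 ± 5.43 CPM (n = 7). Crosses 2175, 2121 and 2177 had means of 36.7, 36.5 and 33.4 CPM, and crosses 2170, 2183 and 2155 had 29.3, 27.2 and 24.7 CPM. The lowest were cross 2158 (Dolce Vita) at 22.3 ± 4.38 CPM (n = 13) and cross 2159 (Driver) at 22.1 ± 4.63 CPM (n = 16). The ranges of the extreme crosses did not overlap: cross 2172 ran from 35.8 to 58.8 CPM and cross 2159 from 14.7 to 32.1 CPM.

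The channel gene had another order. Cross 2183 was highest at 38.3 ± 15.1 CPM (SD, n = 5), a mean that contained the highest sample of the series, at 64.5 CPM. Without that sample its mean was 31.8 CPM, just under that of cross 2175, so the first rank rested on 1 sample. The next were cross 2175 at 31.9, cross 2159 at 30.6, cross 2177 at 28.7, cross 2155 at 27.9 and cross 2158 at 26.8 CPM. Cross 2170 had 25.4, cross 2121 24.6, cross 2168 22.7 and cross 2172 22.2 CPM. Cross 2165 was lowest with 17.5 ± 4.19 CPM (n = 9), and its highest sample had 24.1 CPM. Cross 2175 was above the mean of all samples for both genes, so the orders were not simply turned round.

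Pairs of crosses were compared by two-sided permutation tests of the mean log2 CPM, with Benjamini-Hochberg adjustment over 55 pairs for each of the 2 genes together. For the PPR gene 26 of 55 pairs had an adjusted p under 0.05, and for the channel gene 10 of 55. Crosses 2158 and 2159 each differed from 7 of the 10 other crosses in the PPR gene. For example, cross 2159 was lower than cross 2172, with a log2 difference of -1.02 (exact permutation test, adjusted p = 0.000224). For the channel gene cross 2165 differed from 7 of 10 other crosses and cross 2183 from 4, and no other cross differed from more than 2. Without the sample at 64.5 CPM, left out after seeing the data, cross 2183 differed from 3. Between the extremes, cross 2165 was lower than cross 2183 in the channel gene, with a log2 difference of -1.10 (exact permutation test, adjusted p = 0.00646). No neighbours in either order differed beyond their spread, with a smallest adjusted p of 0.168 for the PPR gene and 0.152 for the channel gene over 10 neighbouring pairs each. These tests have no term for the bruising group, and crosses differed in their mix of high- and low-bruising samples. Cross 2165 held 7 high- and 2 low-bruising samples, and cross 2183 held 4 low-bruising and no high-bruising ones. The differences between crosses thus hold part of the contrast that chose the genes. Their p-values and the counts of pairs are not independent of that choice.

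**Figure D2:**
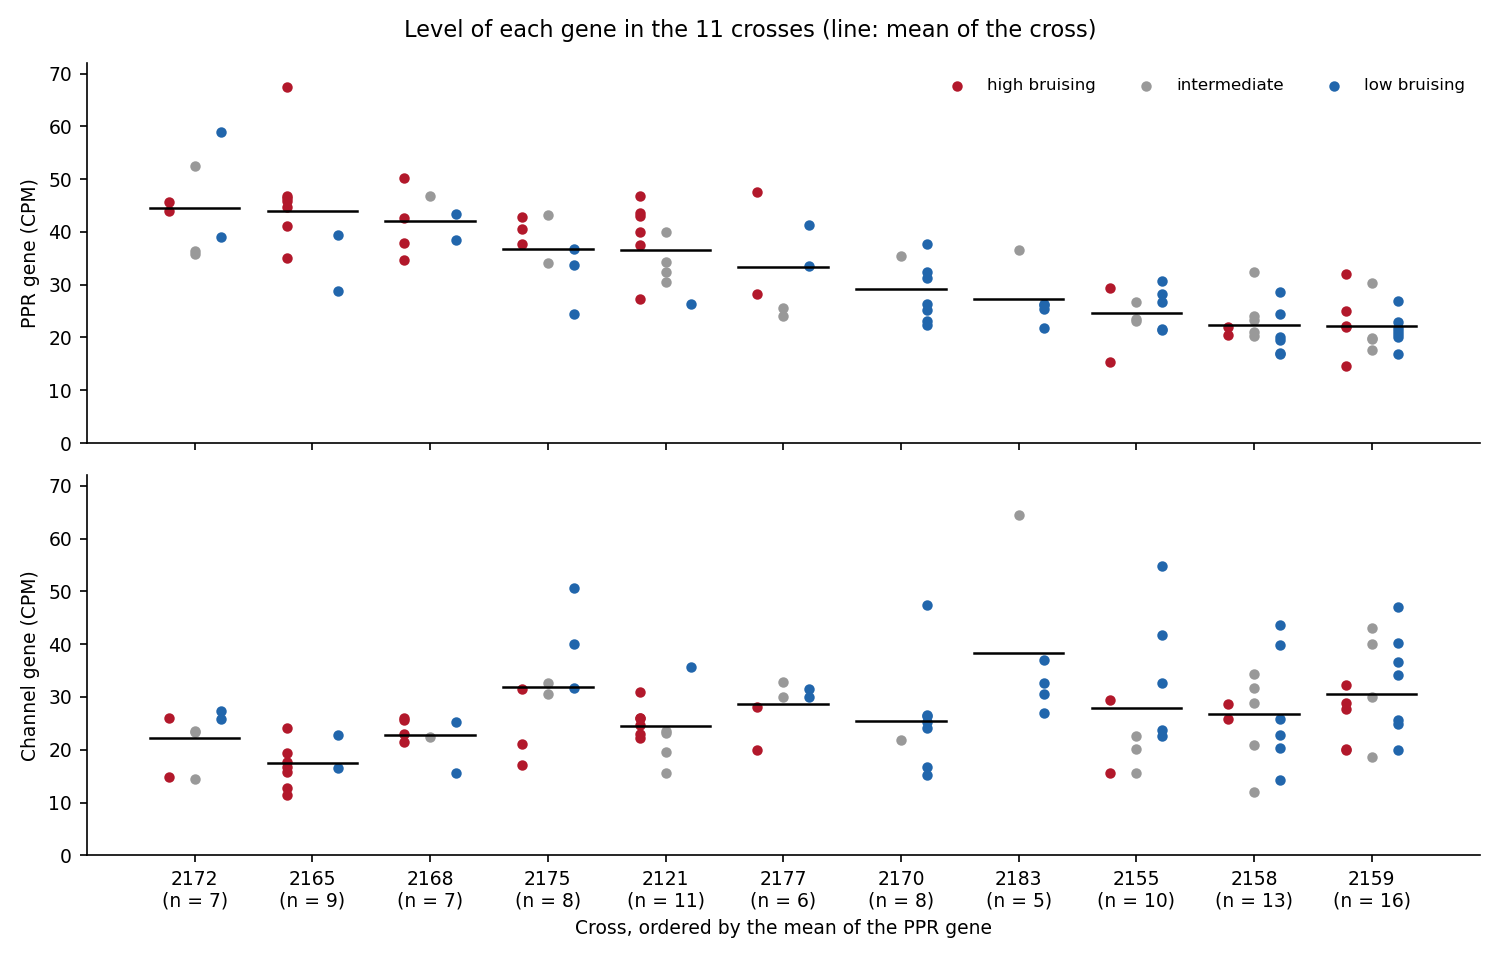
PPR gene (upper panel) and channel gene (lower panel) in CPM for each sample of the 11 crosses, ordered by the mean of the PPR gene and coloured by bruising group, with the mean of each cross as a line. The means of the PPR gene ran between 44.6 and 22.1 CPM, whereas the channel gene varied within most crosses, and cross 2165 held its lowest mean (17.5 CPM).

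Whether the genes moved in opposite directions was first counted within crosses. Of the 9 crosses that held both high- and low-bruising samples, the channel gene had a lower mean log2 CPM in high-bruising samples in 7 and the PPR gene had a higher one in 5. Both held together in 4 crosses (2121, 2159, 2165 and 2175). With DESeq2 size factors the PPR gene was higher in 6 of the 9 crosses, and the other counts stayed the same. These counts split the contrast that chose the genes and carry no test. One of the 4, cross 2121, had a single low-bruising sample, and in cross 2159 the difference of the PPR gene was 0.08 on the log2 scale.

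Cross 2175 (Crop9) showed the widest opposite change. Its high-bruising samples had 21.0, 17.1 and 31.5 CPM of the channel gene, against 31.7, 50.6 and 40.0 CPM in its low-bruising samples. The same high-bruising samples had 42.8, 40.5 and 37.8 CPM of the PPR gene, against 36.8, 33.7 and 24.5 CPM in the low-bruising samples. The nearest samples of the groups stood close together, at 31.5 and 31.7 CPM of the channel gene. These values are part of the contrast that chose the genes and carry no test. The difference of high minus low bruising was -0.83 for the channel gene and 0.37 for the PPR gene.

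In cross 2121 (V390) the 6 high-bruising samples had 22.3 to 31.0 CPM of the channel gene, and the only low-bruising sample had 35.7 CPM. The PPR gene had 27.3 to 46.8 CPM in these high-bruising samples and 26.4 CPM in the low-bruising sample. In cross 2165 (Crop18) the 7 high-bruising samples had 11.4 to 24.1 CPM of the channel gene and the 2 low-bruising samples 16.5 and 22.8 CPM, which is inside that range. The PPR gene had 35.0 to 67.5 CPM in the high-bruising and 39.4 and 28.7 CPM in the low-bruising samples of this cross.

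Other crosses did not show the opposite pattern. In cross 2155 (Admiral) the high-bruising samples had 15.6 and 29.4 CPM of the channel gene, and the low-bruising samples had 22.6 to 54.9 CPM. The PPR gene of this cross was also lower on average, at 22.3 CPM in high-bruising and 25.8 CPM in low-bruising samples. In cross 2158 the differences were 0.08 for the channel gene and 0.03 for the PPR gene. In cross 2168 the channel gene was higher by 0.27 on the log2 scale in high-bruising samples. The PPR gene of this cross had 41.3 CPM in high-bruising and 41.0 CPM in low-bruising samples. Its difference of mean log2 CPM was -0.000468, so it was counted as not higher.

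Whether the difference between high and low bruising itself varied between the crosses was tested by the interaction of group and cross. It was not detected for the channel gene (edgeR quasi-likelihood test, adjusted p = 0.968 for PGSC0003DMG400009888) or for the PPR gene (adjusted p = 0.956 for PGSC0003DMG400009885). Few genes were called in this test at all: 4 of 25163, or 0.0159%. The likelihood ratio test of DESeq2 called 33 of the 25163 (0.131%) and gave an adjusted p to 21254. In the edgeR test 1325 genes had an unadjusted p under 0.05, near the share that this threshold passes without any difference. Crosses with 2 samples in a group give little power here, and the missing call does not show that the crosses were alike.

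**Figure D3:**
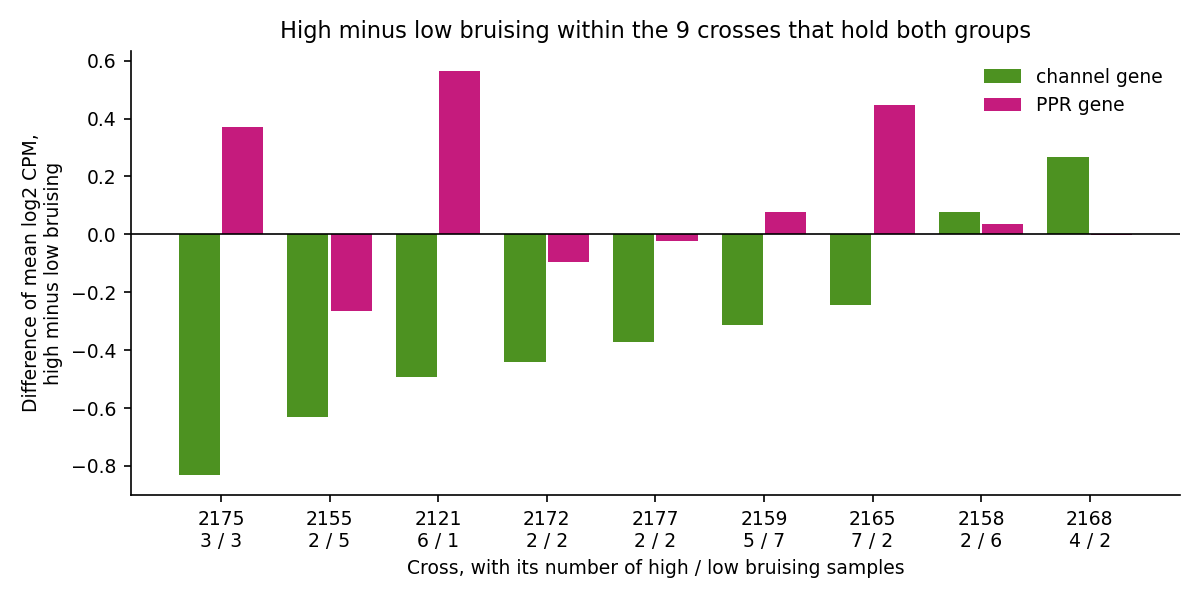
Difference of mean log2 CPM, high minus low bruising, for the channel gene and the PPR gene in the 9 crosses that held both groups, with the number of high- and low-bruising samples under each cross. The channel gene was below 0 in 7 crosses, the PPR gene above 0 in 5, and the opposite signs met in 4 crosses.

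The relation between the genes was then measured from sample to sample. Over all 100 samples the log2 CPM of the genes had a Pearson r of -0.38 and a Spearman rho of -0.40. This value contains the contrast that chose the genes and is a description. After the mean of each combination of cross and bruising group had been removed, r was -0.33 (permutation test within those combinations, p = 0.00777) and rho was -0.31 (p = 0.0114), over 96 samples in combinations of at least 2. With adjustment over the 5 relations computed, these were 0.0194 and 0.0201. Samples with more of the channel gene than others of their cross and group thus tended to have less of the PPR gene.

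This relation rested largely on cross 2158. Without that cross r was -0.20 (permutation p = 0.147), and without any other single cross it lay between -0.42 and -0.29. Without the 2 samples farthest from the median of the channel gene r was -0.29 (p = 0.0202). Samples of biological replicate number 1 alone gave -0.28 (permutation p = 0.1098) and those of number 2 alone -0.51 (permutation p = 0.0623). Removal of the 2 leading components of all genes, chosen after seeing the data, left r at -0.16 (permutation p = 0.234). These components held 7.07% and 6.10% of the variance within crosses and groups. The channel gene had correlations of 0.35 and 0.38 with them and the PPR gene -0.28 and -0.28. Both genes thus went in part with these shared expression patterns, in opposite directions. What the components stand for was not tested.

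Within cross 2158 itself r was -0.84 over 13 samples (permutation test, p = 0.00036, adjusted over 10 crosses p = 0.0036), with a rho of -0.66 (permutation p = 0.0174, adjusted 0.174). The extremes of the cross were clear in the values. Progeny 13, an intermediate sample, had 12.1 CPM of the channel gene and 32.4 CPM of the PPR gene, and progeny 11, of the low-bruising group, had 14.3 and 28.6 CPM. At the other end, low-bruising progeny 5 had 43.7 CPM of the channel gene and 16.9 CPM of the PPR gene, and low-bruising progeny 15 had 39.8 and 17.1 CPM. Without the 2 samples farthest from the median r was -0.59 (permutation p = 0.0588), so the relation rested in part on them. Low-bruising samples stood at both ends. The means of the bruising groups were not removed within this cross.

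In cross 2165 r was -0.75 over 9 samples (exact permutation p = 0.0197, adjusted 0.0987). Its high-bruising progeny 7 had the least of the channel gene in the series, 11.4 CPM, and the most of the PPR gene, 67.5 CPM. Without the 2 farthest samples r was -0.48 (exact permutation p = 0.278). Of the 10 crosses with at least 6 samples, r was negative in 8 and past the adjusted threshold in cross 2158 alone. Without the 2 farthest samples of each cross it was negative in 6, since its sign turned in cross 2121 (-0.34 with all samples, 0.12 without them) and in cross 2177 (-0.64 with all samples, 0.63 over the 4 left). It was 0.34 in cross 2172 and 0.10 in cross 2155, and -0.04 over the 16 samples of cross 2159, the largest cross. Cross 2183, with 5 samples, was too small for a test. Each r of a single cross was taken over its bruising groups together, without removal of group means. It thus contains part of the contrast that chose the genes, and the p-values and signs are not independent of that choice.

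**Figure D4:**
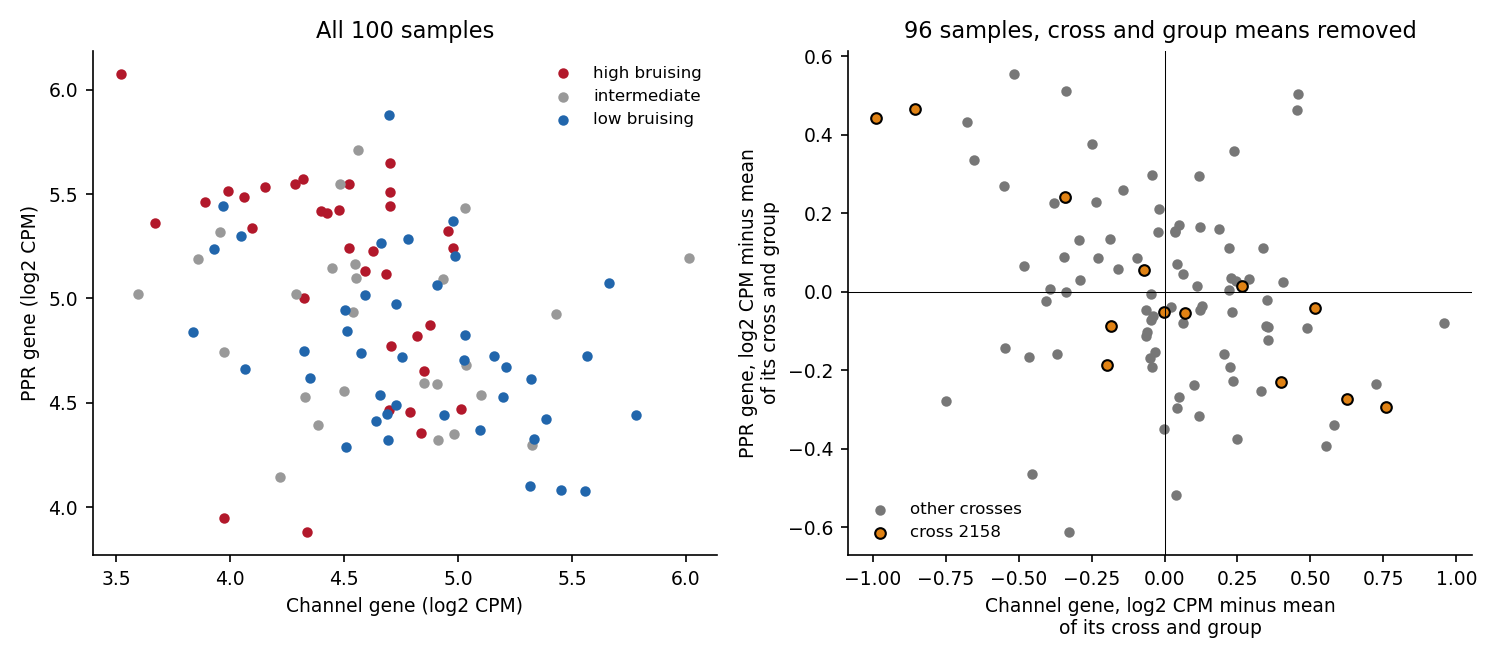
Log2 CPM of the PPR gene against that of the channel gene in all 100 samples, coloured by bruising group (left), and after the mean of each combination of cross and group was removed, for the 96 samples in combinations of at least 2, with cross 2158 marked (right). Pearson r was -0.38 on the left and -0.33 on the right, where the samples of cross 2158 run from the upper left to the lower right.

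The groups were also taken alone, with crosses mixed. The permutations shuffled samples across crosses, so these p-values do not separate differences between crosses from a relation within them. In high-bruising samples r was -0.36 (n = 33, permutation p = 0.0414, adjusted 0.0691) and rho -0.45 (adjusted 0.0201), and r was -0.23 (permutation p = 0.218) without the 2 farthest samples. In low-bruising samples r was -0.41 (n = 41, permutation p = 0.00732, adjusted 0.0194) and rho -0.39 (adjusted 0.0201), with r at -0.41 without the 2 farthest. In the intermediate samples, which played no part in the choice of the genes, no relation was detected, with r at -0.12 and rho at -0.12 (n = 26, permutation p = 0.552 and 0.548). Without the 2 farthest samples r of the intermediate samples was -0.23 (permutation p = 0.270), close to the value of the high-bruising samples without theirs. The difference between these correlations was not tested.

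Between crosses the direction was the same. Over the 11 cross means r was -0.57 (permutation p = 0.0651, adjusted 0.0813) and rho -0.62 (permutation p = 0.0483, adjusted 0.0604), and r was -0.47 (exact permutation p = 0.199) without the 2 crosses farthest from the median of the channel gene. With library sizes set by total counts alone, r of the cross means was -0.72 (permutation p = 0.00987), and with log2 library size removed it was -0.63 (permutation p = 0.0353). The crosses share the parent Crop52 and so are not fully independent points. Each mean was taken over all samples of a cross, without removal of group means. Where a cross held mostly high- or mostly low-bruising samples, its mean carries part of the contrast that chose the genes. The sign and the p-values over cross means are thus not independent of that choice.

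The correlation of the pair was placed among those of other genes. Of 17199 other genes with a mean of at least 1 CPM, 1.74% had a lower r with the channel gene than the PPR gene had, after cross and group means were removed, and 1.96% had a lower r with the PPR gene than the channel gene had. Before that removal the shares were 3.95% and 9.20%. Among the 56 other genes of the study's list, the PPR gene had the second lowest r with the channel gene within crosses and groups, and the channel gene had the lowest with the PPR gene.

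**Figure D5:**
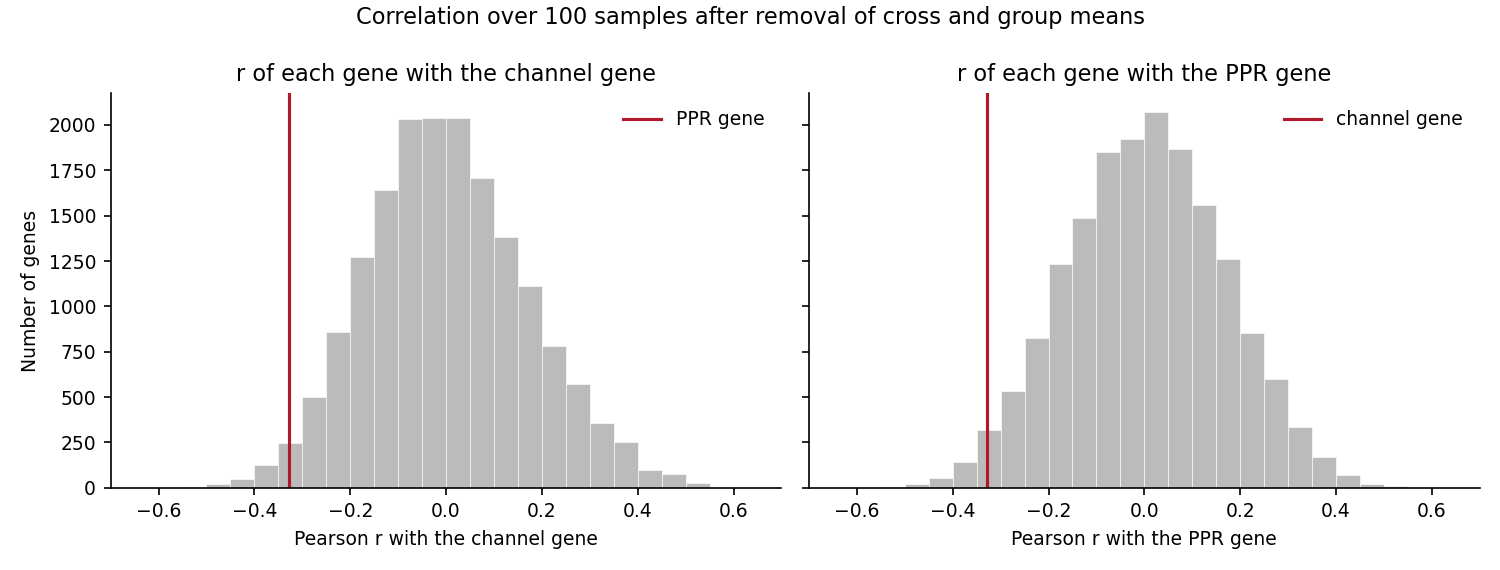
Number of genes by Pearson r with the channel gene (left) and with the PPR gene (right) after removal of cross and group means, over 17199 other genes in bins of r, with a line at the other gene of the pair. The line stands at -0.33 in the lower tail of both distributions, with 1.74% and 1.96% of genes below it.

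The genes whose level followed the channel gene most closely over all 100 samples were PGSC0003DMG401002542 (r = 0.70) and PGSC0003DMG400010794 (r = 0.67), and the most opposite were PGSC0003DMG400021511 (r = -0.69) and PGSC0003DMG400000350 (r = -0.67). For the PPR gene they were PGSC0003DMG400012587 (r = 0.73) and PGSC0003DMG400009122 (r = 0.68), and on the opposite side PGSC0003DMG400000433 (r = -0.72) and PGSC0003DMG400009955 (r = -0.70). None of these has a description in the sources used here. All 4 partners of the channel gene kept an r above 0.5 in size once cross and group means were removed, and those of the PPR gene had 0.35 (PGSC0003DMG400012587), 0.24 (PGSC0003DMG400009122), -0.50 (PGSC0003DMG400000433) and -0.42 (PGSC0003DMG400009955).

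The identifiers PGSC0003DMG400009886 and PGSC0003DMG400009887 are numbered between those of the pair, but their positions were not checked, as no annotation of this build was used. PGSC0003DMG400009886 was low, at 3.93 ± 1.83 CPM (SD, n = 100), with an r of -0.06 with the channel gene and 0.32 with the PPR gene. PGSC0003DMG400009887 was abundant, at 139 ± 70.0 CPM, with an r of 0.49 with the channel gene and -0.49 with the PPR gene. Within crosses and groups PGSC0003DMG400009887 had an r of 0.26 with the channel gene and -0.06 with the PPR gene.

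The other genes of the study's list on chromosome 4 are far from the pair, at 51.6 Mb (an AP2/ERF transcription factor, PGSC0003DMG400020625), 55.45 Mb (cell division protein kinase 7, PGSC0003DMG401019696) and 67.8 Mb (a gene of unknown function, PGSC0003DMG400008035). The AP2/ERF factor, of a family that regulates stress responses in plants, had 133 ± 50.9 CPM in high-bruising and 98.4 ± 26.5 CPM in low-bruising samples. It had an r of -0.26 with the channel gene and 0.37 with the PPR gene over all samples, and 0.01 and 0.06 within crosses and groups. The kinase and the unknown gene had means under 1 CPM. Of these 3 genes, 1 differed between crosses, against 65.9% of all genes.

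A list of 8 membrane transport genes was drawn from the study's own list, so their differences between high and low bruising are again a description. Of them 3 had a fold change above 0 and 5 below 0 in high-bruising samples, and all 8 differed between crosses, against 65.9% of all genes. The organic anion transporter PGSC0003DMG402029307 was lower, at 114 ± 28.0 CPM in high-bruising and 144 ± 28.8 CPM in low-bruising samples, and of the 8 it had the highest r with the channel gene (0.46) and the lowest with the PPR gene (-0.49). Within crosses and groups these were 0.27 with the channel gene and -0.07 with the PPR gene. The oligopeptide transporter of the OPT family, PGSC0003DMG400013297, had 78.5 ± 31.7 CPM in high-bruising and 114 ± 46.3 CPM in low-bruising samples. It kept an r of 0.26 with the channel gene and -0.25 with the PPR gene within crosses and groups. The nitrate transporter PGSC0003DMG400004795 had 8.19 ± 4.44 CPM in high-bruising and 13.9 ± 7.56 CPM in low-bruising samples, with an r of -0.46 with the PPR gene that was -0.11 within crosses and groups. The peptide transporters, at 1.99 ± 1.88 CPM (PGSC0003DMG400022107) and 1.89 ± 1.42 CPM (PGSC0003DMG400006606) in high-bruising samples, against 0.992 ± 0.751 and 0.904 ± 0.874 CPM in low-bruising samples, had correlations with the channel gene of -0.04 and -0.05.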

How the data were processed

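The authors made SENSE polyA libraries (Lexogen), checked reads with FastQC 0.11.7, removed ribosomal reads with SortMeRNA, trimmed with BBDuk, aligned to PGSC-DM v4.03 with STAR 2.6.1 and deposited its counts of uniquely aligned reads per gene, as whole numbers without normalization. Low-count genes had been removed: all 25163 genes have at least 5 counts in at least 5 samples. All columns were used, and no pair of samples was identical. Both genes, the lists and the tests were chosen with earlier results of these data known. Log2 CPM used TMM library sizes and a pseudocount of 0.5 counts. Fits used edgeR 4.0.16 (R 4.3.3) with Benjamini-Hochberg adjustment at 0.05; DESeq2 1.42.0 was an alternative. Permutation tests were two-sided, exact up to 9 values for correlations and where a cross had under 10 samples for pairs, and otherwise with 100000 resamples (scipy 1.17.1). Tests were run on simulated data first. Named genes were the pair, the study's chromosome 4 and membrane transport genes, the identifiers numbered between the pair, and the genes most and least correlated with each. No reference identifier matched, so no sequence is shown.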

Additional observations from a re-analysis of the deposited data

Results flagged for a closer look

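In 16 sets of samples (8 crosses with 4 to 10 samples, for each gene), 4 held a sample set apart by a gap larger than Dixon's criterion allows. Chance gives about 1 in 20 only where values follow a normal distribution. The criterion was applied to CPM and not to log2 CPM, on which high values stand less far apart. The count is therefore no measure of an excess over chance. The channel gene had 64.5 CPM in progeny 6 of cross 2183, an intermediate sample, against 26.9 to 36.9 CPM in the other samples of that cross. It had 47.4 CPM in low-bruising progeny 4 of cross 2170, against 15.2 to 26.5 CPM in the others. In cross 2177 it was low, at 19.96 CPM in high-bruising progeny 2, against 28.2 to 32.8 CPM in the others. The PPR gene had 67.5 CPM in high-bruising progeny 7 of cross 2165, against 28.7 to 46.8 CPM in the others. The cause was not tested.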

How the results depend on the processing

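Of 142 recomputed values, 132 kept their side of the threshold, or stayed near the first value where there was no test. Among these values, no fold change or correlation taken over several crosses changed direction. Differences and correlations within single crosses entered only as counts. Without the 2 farthest samples of each cross, r turned its sign in crosses 2121 and 2177. With DESeq2 size factors the PPR gene was higher in high-bruising samples in 6 crosses, against 5. The tests between crosses, the interaction tests and the counts have no direction that could change. With cross as a term the log2 difference of the PPR gene between high and low bruising was 0.13 in place of 0.40. Over the other alternatives, each cross left out included, it lay between 0.31 and 0.44, and that of the channel gene lay between -0.44 and -0.32 over all of them. The difference of the channel gene between crosses missed the threshold without cross 2165 (adjusted p = 0.115) and with high- and low-bruising samples only (0.0570). The likelihood ratio test of DESeq2 called 33 genes for the interaction, against 4 with edgeR. The correlation within crosses and groups missed the threshold without cross 2158 (r = -0.20), with biological replicate number 1 only (-0.28), with number 2 only (-0.51) and after 2 components were removed (-0.16), the last chosen after seeing the data. That of the cross means passed it with total counts only (-0.72) and with log2 library size removed (-0.63). The cause was not tested. Leaving out each sample in turn gave correlations between -0.40 and -0.28.

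The labels give each sample a biological replicate number, which does not pair samples of different genotypes. With the replicate block the correlation was -0.35 (permutation p = 0.0179), the log2 differences of high minus low bruising were -0.39 for the channel gene and 0.40 for the PPR gene, 16458 genes differed between crosses and 4 genes were called for the interaction. Depth did not limit either gene, but 9 crosses with 1 to 7 samples in a group limit what the interaction could show.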
